A study of Mus musculus with 6 samples.

Results

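Transcripts of 41 homeobox genes were followed in early mouse mesoderm: 38 Hox genes, of which 10 lie in the HoxA, 10 in the HoxB, 9 in the HoxC and 9 in the HoxD cluster, and the caudal-type genes Cdx1, Cdx2 and Cdx4. They were taken by gene symbol from a table of 24975 genes, by a rule that does not use their values. The choice was made with earlier results of these data known. Gli3R libraries came from embryos of the genotype Mesp1-Cre/+;R26-Gli3R-IRES-Venus/+, in which Mesp1-Cre switches on a repressor form of the Hedgehog factor Gli3 together with the Venus reporter. Control libraries came from Mesp1-Cre/+;R26-tdTomato/+ embryos, so that the Cre allele is shared by both groups. RNA of 1000 cells per library was sequenced at embryonic day 7.5, with 3 libraries per group, 1 of each group from each of 3 litters. Embryos of a litter were pooled. Venus-positive cells were sorted for Gli3R and tdTomato-positive cells for control, per the notes in the deposited table, so the effect of Gli3R cannot be told apart from that of the reporter. Mesp1-Cre marks cells that have passed through the nascent mesoderm, and the sort can hold embryonic and extraembryonic mesoderm side by side.

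Hox genes encode transcription factors that give cells of the head-to-tail axis their position. Genes of a cluster are switched on in the order in which they stand, so that genes of low number (3′) come on early and reach far forward, and genes of high number (5′) come on late and stay at the tail. Genes of the same number in different clusters are paralogs. The 3 Cdx factors act upstream of many Hox genes in the posterior embryo and are themselves targets of WNT, FGF and retinoic acid signals. In the mouse gastrula, Hoxb1 is among the earliest Hox genes of the primitive streak and its mesoderm.

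Library totals ran from 5481190 to 12635151 counts. Control replicate 1, the shallowest library, stood apart on the first principal component (35.0% of the variance). Gli3, part of which the transgene carries, averaged 44.5 ± 6.04 CPM (counts per 1000000 of the library, scaled by TMM) in the Gli3R and 29.9 ± 4.30 CPM in the control libraries (SD, n = 3 each). The fitted log2 fold change, Gli3R over control, was 0.57 ± 0.15 (SE, as after every log2 fold change here), with an adjusted p of 0.312. Adjusted p-values come from edgeR's quasi-likelihood test by the Benjamini-Hochberg method over all tested genes, and a gene passed where its value was under 0.05. The 10 gastrula mesoderm markers all had reads and summed to 280 to 337 CPM in Gli3R and 277 to 301 CPM in control libraries. Hand1, also a marker of extraembryonic mesoderm here, gave the most, at a mean of 180 CPM in Gli3R and 133 CPM in control libraries. Hand1 and Kdr had higher means in Gli3R. The others had lower means there, such as Mesp2 (1.68 against 4.94 CPM in control), Tbx6 (2.57 against 7.51) and Lhx1 (2.48 against 2.53). The sum thus does not show that the groups held like mesoderm. The 9 markers of extraembryonic mesoderm and allantois, Cdx4 left out, all had reads and summed to 707 to 976 CPM in Gli3R and 498 to 650 CPM in control libraries. Tbx4 alone of them had the lower mean in Gli3R (7.67 against 9.86 CPM in control). All 10 markers of the primitive streak had reads and summed to 21.8 to 37.5 CPM in Gli3R and 37.2 to 98.5 CPM in control libraries, and the 9 of epiblast and ectoderm to 30.4 to 38 CPM in Gli3R and 44.6 to 97.8 CPM in control libraries. In these lists Wnt3 of the streak (2.83 against 2.12 CPM in control) and Otx2 of the epiblast (11.3 against 10.4) had higher means in Gli3R, and the others lower. The part of the marked cell types in the results was not tested. In pooled cells, fewer cells of a type and less RNA per cell cannot be told apart.

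Sequence upstream of 5 members is shown. Cdx4 is the Cdx gene with the most reads, and Hoxb1 is, with Hoxb2, the most abundant Hox gene. Hoxa2 and Hoxd10 are genes whose groups did not overlap but which did not pass the test. Hoxb8 was picked for its window, which held more matches to the Cdx letters than that of any other member searched. The windows were read from the RefSeq promoter table (build GRCm38.p6), which matched 24 members with 26 windows, and Cdx1 was left out. Each is 250 bases, 5′ to 3′ on the gene's strand, ending at the base before the annotated start, shortened to 244 for Hoxb1 where an annotated exon begins. Capitals mark matches to 6 motifs searched on both strands.
Cdx4: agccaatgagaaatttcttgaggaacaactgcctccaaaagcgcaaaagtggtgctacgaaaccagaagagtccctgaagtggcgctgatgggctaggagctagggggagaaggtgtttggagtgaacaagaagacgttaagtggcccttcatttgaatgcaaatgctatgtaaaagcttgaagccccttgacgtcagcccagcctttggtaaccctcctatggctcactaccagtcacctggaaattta
Hoxa2: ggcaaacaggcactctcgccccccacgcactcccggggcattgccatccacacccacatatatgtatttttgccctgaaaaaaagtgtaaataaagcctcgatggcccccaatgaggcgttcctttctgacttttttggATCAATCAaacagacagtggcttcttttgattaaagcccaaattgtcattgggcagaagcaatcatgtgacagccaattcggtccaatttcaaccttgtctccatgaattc
Hoxb1: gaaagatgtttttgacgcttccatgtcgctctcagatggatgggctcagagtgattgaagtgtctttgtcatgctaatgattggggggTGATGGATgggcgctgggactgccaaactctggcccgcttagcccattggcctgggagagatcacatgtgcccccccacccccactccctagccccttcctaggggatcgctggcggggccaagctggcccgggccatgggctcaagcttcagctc
Hoxb8: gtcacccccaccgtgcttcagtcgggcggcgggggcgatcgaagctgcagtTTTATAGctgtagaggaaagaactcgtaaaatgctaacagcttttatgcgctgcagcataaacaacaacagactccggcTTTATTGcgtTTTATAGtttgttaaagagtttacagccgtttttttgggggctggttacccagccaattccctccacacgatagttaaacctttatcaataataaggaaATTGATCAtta
Hoxd10: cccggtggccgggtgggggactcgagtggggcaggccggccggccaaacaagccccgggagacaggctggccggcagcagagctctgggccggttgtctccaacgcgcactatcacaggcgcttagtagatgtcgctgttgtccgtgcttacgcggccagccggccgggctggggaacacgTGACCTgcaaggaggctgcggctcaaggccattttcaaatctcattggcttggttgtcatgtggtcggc

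The windows lie at chrX:103321148-103321397, plus strand (Cdx4), chr6:52164832-52165081, minus strand (Hoxa2), chr11:96365508-96365751, plus strand (Hoxb1), chr11:96281655-96281904, plus strand (Hoxb8) and chr2:74691641-74691890, plus strand (Hoxd10). The PBX-HOX letters TGATNNAT, a site shared by a Hox factor and its PBX cofactor, were found in 4 of the 26 member windows and in 7.66% of 32536 windows of all genes. In Hoxb1 they begin 162 bases before the start, and in Hoxa2, on the other strand, 111 bases before it. In the mouse, Hoxb1 is known to sustain its own expression through sites of this kind. The CDX letters TTTATNG were found in 2 member windows and in 9.74% of all windows, with 3 matches in Hoxb8. The retinoic acid receptor letters AGGTCA were found in 6 member windows, Hoxd10 among them, and in 14% of all windows. The T-box letters AGGTGTG and the TCF/LEF letters CTTTGAT were found in 1 member window each, against 5.12% and 3.21% of all windows, and the GLI letters GACCACCCA in 0 member windows, against 0.218%. The Cdx4 window held none of the 6. A match is a stretch of letters and not a measured site.

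The members spanned the whole range of detection, with HoxB far above the other clusters. Hoxb1 and Hoxb2 together took 57.1% to 74.2% of all Hox counts in a library. Per kilobase of the longest RefSeq transcript, Hoxb2 stood at 49.5 ± 3.08 CPM in Gli3R and 37.6 ± 4.03 CPM in control libraries, and Hoxb1 at 42.8 ± 4.74 CPM in Gli3R and 40.7 ± 13 CPM in control libraries (SD, n = 3 each). The order of these neighbours does not go beyond their spread. It also depends on the length used: per kilobase of merged exons Hoxb2 stood at 20.3 CPM over all libraries, below Hoxb1 (37.5) and Cdx4 (23.7). Next by transcript length came Cdx4 (18.2 ± 8.39 CPM per kilobase in Gli3R, 29.1 ± 4.78 in control), Hoxb6 (15.4 ± 3.11 in Gli3R, 9.17 ± 2.77 in control) and Cdx1 (6.5 ± 5.79 in Gli3R, 16 ± 9.61 in control). Within HoxA the level per kilobase did not decline steadily along the cluster. Hoxa10, a 5′ gene known in the allantois of the mouse, held 4.26 ± 1.03 CPM per kilobase in Gli3R and 5.40 ± 2.88 in control libraries, and the 3′ gene Hoxa2 2.05 ± 0.769 in Gli3R and 4.24 ± 0.636 in control. Hoxa3 to Hoxa9, which stand between them, all had lower means in both groups.

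**Figure D1:**
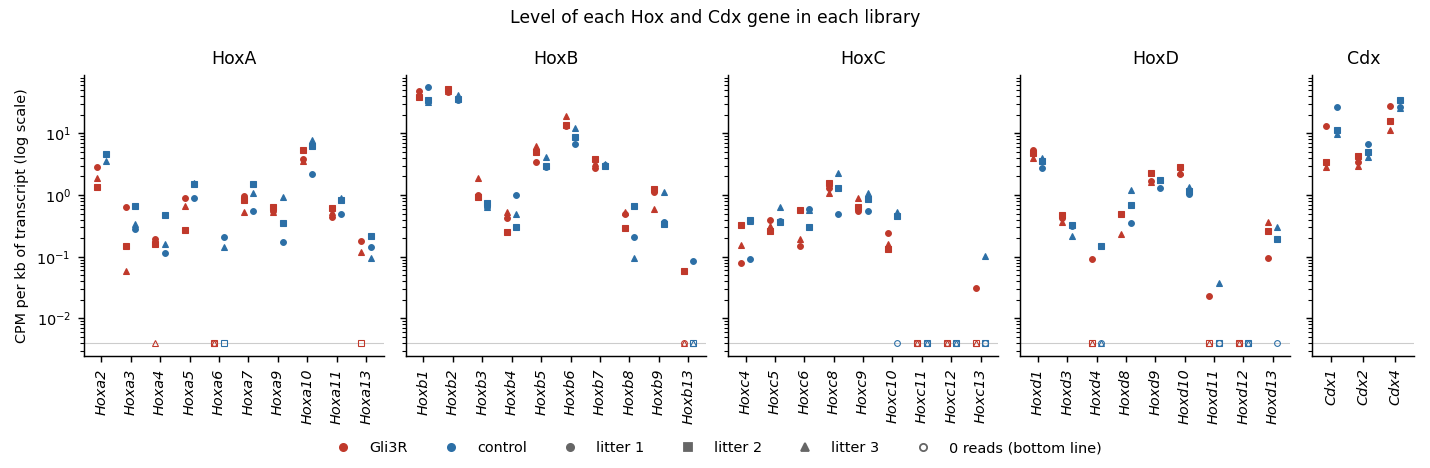
Level of the 41 members in CPM per kilobase of the longest RefSeq transcript (log axis), 1 point per library, Gli3R left and control right of each gene, with open symbols on the bottom line for libraries with 0 reads. Hoxb1, Hoxb2, Cdx4, Hoxb6 and Cdx1 stand highest, and Hoxc11, Hoxc12 and Hoxd12 have 0 reads in all 6 libraries.

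Of the 41 members, 23 had enough reads to be tested, namely 6 HoxA, 8 HoxB, 2 HoxC, 4 HoxD and all 3 Cdx genes. The other 18 did not reach the filter. Hoxc11, Hoxc12 and Hoxd12 had 0 reads in all 6 libraries, which allows a level of up to 0.233 to 0.557 CPM per library (counting error only). Among the other untested genes, Hoxd3 was the one with every Gli3R library above every control library, on 34 reads in Gli3R and 20 in control, a 1.48-fold ratio with a 95% counting interval of 0.828 to 2.71. The summed reads of Hoxb4 were 28 in Gli3R and 32 in control, those of Hoxc5 27 and 32, and those of Hoxa3 25 and 29. Exons of 15 members overlap another annotated gene, Hoxa2, Hoxb2, Hoxb3, Hoxb5 and Hoxd10 among them, and the strand setting of the counting is not given, so their reads may include those of a neighbour.

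Over all 11913 genes tested, 16 passed, or 0.134%, and 0 of the 23 members did (edgeR). At an unadjusted p under 0.05, 4 members were higher (3.56% of all tested genes) and 4 lower (3.29%). With litter as a block, 1 member passed, Cdx1, which fell, against 0.151% of all genes that fell there. The DESeq2 test called 0 members without the block and 1 with it. In 4 members every Gli3R library lay above every control library (5.62% of all tested genes), and in 1 below (6.33%). In all 3 litters, 5 members were higher in the Gli3R library (15% of all tested genes) and 4 lower (15.2%). The members' fitted log2 fold changes had a median of 0.08, against -0.0079 over all tested genes, and their median size without sign was 0.52, against 0.12. These medians were not matched for read depth, and some members had few reads, such as Hoxb8 (32 in Gli3R, 23 in control, SE 0.61). Whether low counts widen the members' median size was not tested.

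Among the Cdx genes, which act upstream of Hox genes, Cdx1 (Entrez gene 12590) was the member that fell with the litter block. It stood at 23.1, 6.02 and 5.06 CPM in Gli3R replicates 1, 2 and 3, against 47.3, 19.7 and 16.9 CPM in the control replicates of the same litters. Litter 1 was the highest in each group, so the groups overlapped, but the Gli3R library was the lower one in each litter, by 1.04, 1.71 and 1.74 on the log2 scale. The log2 fold change was -1.19 ± 0.55 without the litter block (edgeR, adjusted p = 0.740) and -1.42 ± 0.18 with it (adjusted p = 0.0327). With the block and without litter 1 the call held (-1.72, adjusted p = 7.57e-05), while without litter 2 or litter 3 Cdx1 did not pass (-1.29 and -1.31, adjusted p = 0.193 and 0.165, edgeR). In the fit with the block and without litter 1, 221 of all genes tested there passed. The streak gene T showed a like order of litters, at 8.08, 5.13 and 3.53 CPM in Gli3R and 43.6, 16.4 and 7.99 CPM in control libraries. Whether the streak share of a library bears on Cdx1 was not tested.

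Cdx4 (Entrez gene 12592), an X-linked gene that responds to WNT in the mouse posterior embryo, had the most reads of the 3. It stood at 54.1, 31.0 and 22.2 CPM in Gli3R libraries and at 52.1, 67.9 and 51.2 CPM in control libraries. In litter 1 the libraries lay close together, while in litters 2 and 3 Gli3R held less than control, by 1.13 and 1.2 on the log2 scale. Its log2 fold change was -0.66 ± 0.27 (edgeR, adjusted p = 0.701), and without litter 1 it was -1.16 (adjusted p = 0.0404). With the block it did not pass (-0.74 ± 0.23, adjusted p = 0.363), but passed with the block and without litter 1 (adjusted p = 1.33e-05, edgeR). That fit rests on litters 2 and 3 alone, and 221 of all genes tested there passed.

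Cdx2 (Entrez gene 12591), which acts in the posterior axis and, earlier, in the trophectoderm, stood at 7.84, 9.74 and 6.60 CPM in Gli3R libraries and at 15.2, 11.4 and 9.39 CPM in control libraries. Gli3R replicate 2 lay just above control replicate 3, so the groups overlapped, with the Gli3R library lower in each litter. Its log2 fold change of -0.56 ± 0.23 did not pass (edgeR, adjusted p = 0.701, and 0.438 with the litter block). Of 11 trophoblast markers 10 had reads, summing to 905 to 1501 CPM in Gli3R and 706 to 1383 CPM in control libraries, mostly of Krt8 and Krt18, which other epithelia share. Over all 6 libraries together, Elf5 had 0 reads, Tfap2a 1, Esrrb 2, Bmp8b 6, Tfap2c 15 and Krt7 21, while Gata3 had 114, Plet1 161 and Ascl2 174. Their part in the result was not tested. Summed Cdx counts were 85, 46.8 and 33.9 CPM in Gli3R and 115, 99.1 and 77.5 CPM in control libraries, and in all but control replicate 1 Cdx4 gave 63.7% to 68.5% of them.

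**Figure D2:**
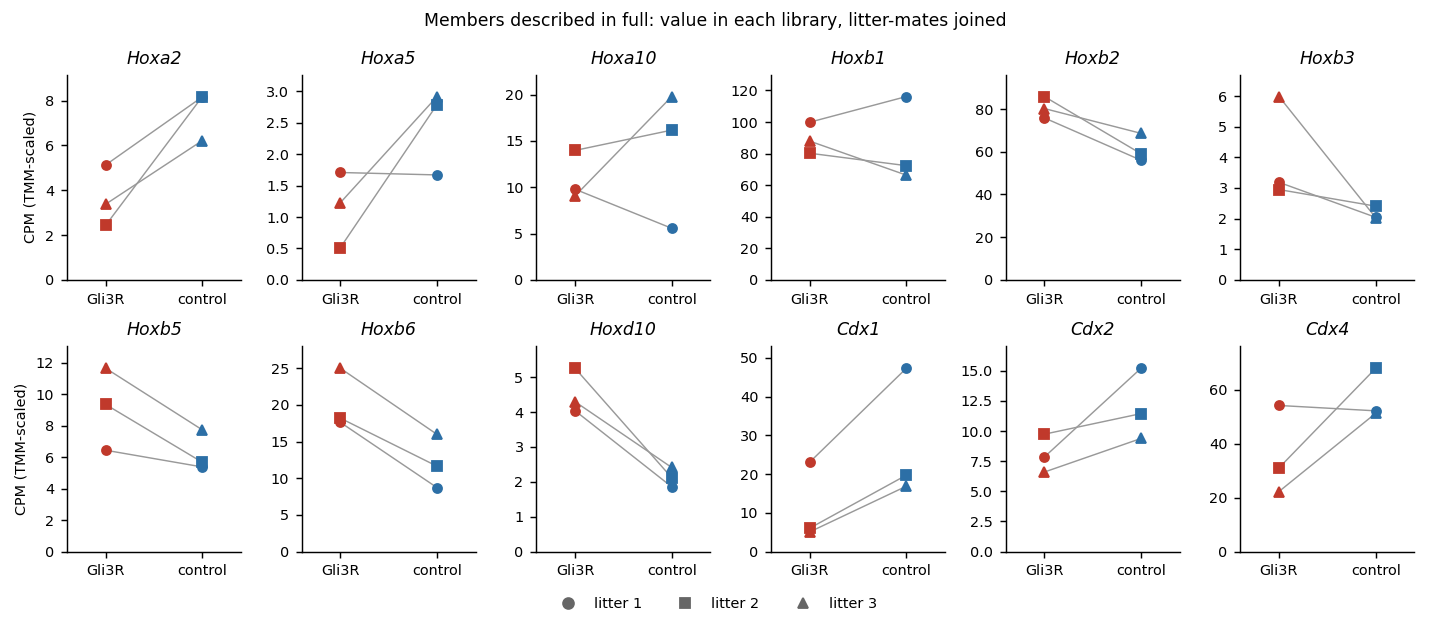
CPM of the 12 members described in full, with litter-mates joined by a line, Gli3R left and control right, each axis starting at 0. Cdx1, Cdx2 and Hoxa2 are lower in Gli3R in each litter and Hoxb2, Hoxb3, Hoxb5, Hoxb6 and Hoxd10 higher, while Cdx4 differs little in litter 1.

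All 8 tested HoxB genes had a positive fitted log2 fold change, from 0.08 for Hoxb1, whose sign turned when libraries were left out, to 0.86 for Hoxb3. Over all 11913 tested genes, 5735 lay above 0 and 6178 below. In all 3 litters 4 HoxB genes were higher (15% of all tested genes). Hoxb1 and Hoxb7 were lower in litter 1, Hoxb8 in litter 2 and Hoxb9 in litter 3. Of the 8, 3 were at an unadjusted p under 0.05 (3.56% of all tested genes were higher there). Over all genes 0 passed (lowest adjusted p = 0.341, edgeR quasi-likelihood test). Summed HoxB counts were 212, 206 and 219 CPM in Gli3R and 196, 158 and 169 CPM in control libraries, so that the groups did not overlap. Of all tested genes, taken singly, 5.62% had every Gli3R library above every control library. Within the sum, the widest gaps in mean were those of Hoxb2 (80.7 CPM in Gli3R, 61.2 in control) and Hoxb6 (20.3 in Gli3R, 12.1 in control). The groups of both genes also lay apart. Reads of neighbouring Hox genes are not independent of each other, and no test was made on the sum.

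Hoxb1 (Entrez gene 15407), which sets rhombomere identity in the hindbrain and marks early mesoderm, stood at 99.9, 80.2 and 87.9 CPM in Gli3R and at 116, 72.3 and 66.3 CPM in control libraries. It was lower in litter 1 and higher in litters 2 and 3, with a log2 fold change of 0.08 ± 0.19. No direction can be given. Its neighbour Hoxb2 (Entrez gene 103889), another hindbrain patterning gene, stood at 75.9, 85.9 and 80.2 CPM in Gli3R and at 56.0, 59.1 and 68.6 CPM in control libraries. All 3 Gli3R libraries lay above all 3 control libraries, and the log2 fold change of 0.39 ± 0.11 did not pass (edgeR, adjusted p = 0.341).

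Hoxb6 (Entrez gene 15414), which is widely used to mark the lateral plate of the posterior mouse embryo, stood at 17.6, 18.2 and 25 CPM in Gli3R and at 8.72, 11.6 and 16 CPM in control libraries. The groups did not overlap, and each litter showed the difference. Its log2 fold change was 0.72 ± 0.23 (edgeR, adjusted p = 0.473, and 0.113 with the litter block). Hoxb5 (Entrez gene 15413), its 3′ neighbour, stood at 6.45, 9.36 and 11.7 CPM in Gli3R and at 5.38, 5.68 and 7.74 CPM in control libraries, overlapping at 1 library of each group. Hoxb3 (Entrez gene 15410), active in the hindbrain and pharyngeal region, had few reads, at 3.18, 2.95 and 5.98 CPM in Gli3R and 2.04, 2.41 and 2.03 CPM in control libraries. The groups lay apart, but Gli3R replicate 3 held most of the difference. The log2 fold changes were 0.52 ± 0.27 for Hoxb5 and 0.86 ± 0.35 for Hoxb3, which did not pass (adjusted p = 0.805 and 0.695, edgeR). The 5′ genes Hoxb7, Hoxb8 and Hoxb9 lay between 0.10 and 0.71, with standard errors of 0.25 to 0.61.

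Tested HoxA genes mostly lay on the other side, 5 of 6 having a negative log2 fold change (6178 of 11913 over all tested genes). In all 3 litters 2 of the 6 were lower (15.2% of all tested genes). Hoxa2 (Entrez gene 15399), which patterns the hindbrain and the second pharyngeal arch, stood at 5.13, 2.44 and 3.38 CPM in Gli3R and at 8.16, 8.18 and 6.21 CPM in control libraries. It was the tested member whose Gli3R libraries all lay below the control libraries. Its log2 fold change of -1.0 ± 0.29 did not pass (edgeR, adjusted p = 0.415, and 0.246 with the litter block). With the block and without litter 1 Hoxa2 passed (-1.32, adjusted p = 0.0430, edgeR), among 221 genes that passed there. Hoxa5 (Entrez gene 15402), a regulator of lung and skeletal patterning, stood at 1.71, 0.513 and 1.23 CPM in Gli3R and at 1.67, 2.79 and 2.92 CPM in control libraries. Control replicate 1 lay among the Gli3R libraries, and the log2 fold change was -1.06 ± 0.44 on 34 reads in Gli3R and 61 in control (adjusted p = 0.701, edgeR).

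Hoxa10 (Entrez gene 15395), which patterns the lumbar region and the uterus, stood at 9.78, 13.97 and 9.05 CPM in Gli3R and at 5.57, 16.2 and 19.8 CPM in control libraries. Gli3R was higher in litter 1 and lower in litters 2 and 3, and the log2 fold change of -0.37 ± 0.37 turned sign without litter 3 (0.057). Control replicate 1 held the least Hoxa10 of all 6 libraries and also the most T. Summed HoxA counts were 23.5, 22.7 and 18 CPM in Gli3R and 19.5, 36.0 and 37.5 CPM in control libraries, so that the order of the groups differed between litter 1 and the other litters. The other tested HoxA genes had log2 fold changes of 0.17 (Hoxa9), -0.44 (Hoxa7) and -0.54 (Hoxa11), with standard errors of 0.38 to 0.51.

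In HoxD, Hoxd10 (Entrez gene 15430), a gene of the limb and the lumbar spinal cord, had the largest log2 fold change above 0 of all tested members. It stood at 4.04, 5.25 and 4.30 CPM in Gli3R and at 1.86, 2.12 and 2.41 CPM in control libraries. Every Gli3R library lay above every control library, on 121 reads in Gli3R and 51 in control. The log2 fold change was 1.07 ± 0.27 and did not pass (edgeR, adjusted p = 0.292, and 0.253 with the litter block). Hoxd1, the 3′ gene of the cluster, averaged 8.73 ± 1.27 CPM in Gli3R and 6.47 ± 1.17 CPM in control libraries (log2 fold change 0.43 ± 0.22), Hoxd9 stood at 0.21 ± 0.26 and Hoxd8 at -0.86 ± 0.48. The tested HoxC genes Hoxc8 (-0.08 ± 0.44) and Hoxc9 (-0.30 ± 0.37) differed between groups by less than their standard errors.

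**Figure D3:**
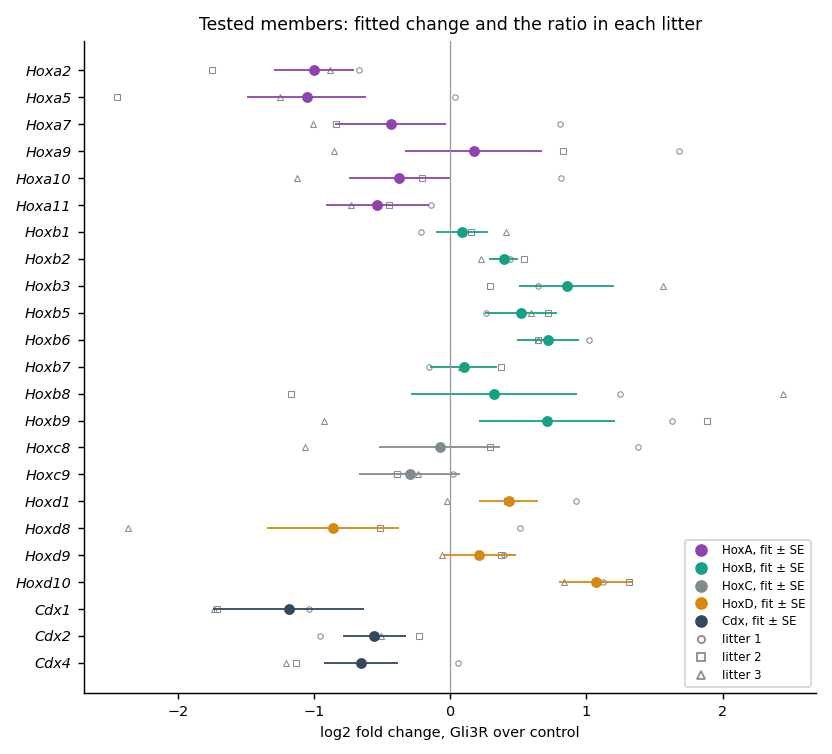
Log2 fold change, Gli3R over control, of the 23 tested members (filled points, bars are SE) with the log2 ratio in each of 3 litters (open symbols), ordered by cluster and position. All 8 HoxB points lie above 0 (Hoxb1 only in the fit of all libraries and some others), 5 of 6 HoxA points and all 3 Cdx points below it, and the litters of low-count genes such as Hoxb8 scatter widely.

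Ratios between paralogs were taken within each library for 7 pairs. For each count of Hoxb2 there were 0.0676, 0.0284 and 0.0421 counts of Hoxa2 in Gli3R libraries and 0.146, 0.138 and 0.0906 in control libraries. For each count of Hoxd10 there were 2.42, 2.66 and 2.11 counts of Hoxa10 in Gli3R libraries and 3.00, 7.64 and 8.21 in control libraries. Both ratios lay lower in each Gli3R library than in any control library, as did that of Hoxa5 to Hoxb5 (0.265, 0.0548 and 0.105 in Gli3R, against 0.310, 0.492 and 0.377 in control). In the other 4 pairs the groups overlapped, namely Hoxb1 to Hoxd1, Hoxa9 to Hoxb9, Hoxa7 to Hoxb7 and Hoxb9 to Hoxd9, the last with a mean of 0.627 in Gli3R and 0.452 in control libraries. The pairs were chosen after their values were seen, and the difference between paralogs was not tested. Single genes lay apart in 12% of all tested genes in either direction, and the share over pairs of genes was not taken. Hoxa2, Hoxb2 and Hoxd10 lay apart by themselves, so the ratios that hold them partly repeat those values. Within a ratio the length of a transcript cancels between groups, but a ratio shows unequal change and not which of the pair changed.

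**Figure D4:**
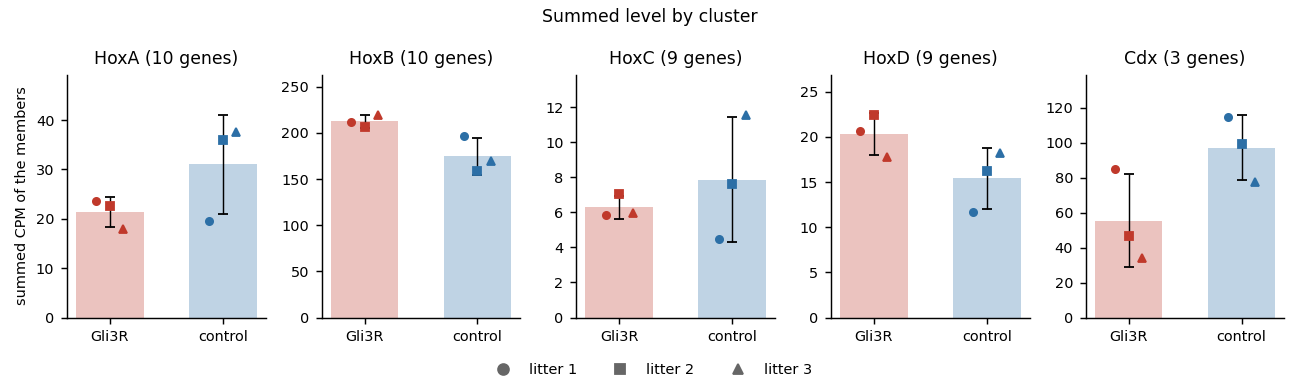
Summed CPM of the members of each cluster and of the Cdx genes, with bars for the mean, whiskers for the SD (n = 3) and points for the libraries, Gli3R left and control right. HoxB libraries lie at 206 to 219 CPM in Gli3R and 158 to 196 CPM in control, and control litter 1 is the lowest HoxA, HoxC and HoxD library of its group.

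Of the TALE cofactors, which bind DNA with Hox proteins, 8 of 9 were tested and 0 passed over all genes (edgeR, and 0 by the DESeq2 test), with 1 at an unadjusted p under 0.05. That gene, Meis1, averaged 33.4 ± 5.99 CPM in Gli3R and 22.3 ± 2.27 CPM in control libraries (log2 fold change 0.58 ± 0.16, adjusted p = 0.354), with every Gli3R library above every control library. Meis2 (-0.29 ± 0.16), Meis3 (0.34 ± 0.15) and Pknox1 (0.43 ± 0.26) lay on either side of 0. The list's median log2 fold change was -0.02. Over all tested genes, 3.56% were higher and 3.29% lower at an unadjusted p under 0.05, the background for this and the following lists.

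Retinoic acid reaches 3′ Hox genes through response elements, and 13 of 14 genes of its synthesis, breakdown and reception were tested. None of the 13 passed over all genes (edgeR, and 0 by the DESeq2 test), with 3 higher and 2 lower at an unadjusted p under 0.05 and a median log2 fold change of -0.0064. Aldh1a2, the main enzyme of retinoic acid synthesis in the embryo, averaged 72.3 ± 38.1 CPM in Gli3R and 167 ± 31.7 CPM in control libraries (-1.19 ± 0.30, adjusted p = 0.292). It did not pass with the block (adjusted p = 0.0632), but passed in edgeR with no low-count filter (0.00317), without Gli3R replicate 1 (0.0158) and without litter 1 (0.00185), and in 4 of the settings that joined the block with another choice. The retinol receptor gene Stra6 stood at -1.11 ± 0.33 and passed in 2 of those joined settings. The genes of the degrading enzymes Cyp26a1 and Cyp26c1 stood at 0.32 ± 0.12 and 1.69 ± 0.44, the second at a mean of 1.56 CPM in Gli3R and 0.453 CPM in control libraries.

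WNT, FGF and T-box genes of the posterior embryo, which feed into Cdx, gave 18 tested of 22. Of these, 2 fell and 0 rose (Fgf3 and Fgf15, both ligands of the FGF family), against 13 and 3 over all 11913 tested genes. By the DESeq2 test 4 passed, all lower, against 51 lower over all tested genes. At an unadjusted p under 0.05, 7 were lower and 0 higher (3.29% and 3.56% of all tested genes), and the median log2 fold change was -0.56. T joined Fgf3 and Fgf15 with the litter block (-1.93 ± 0.55 without it and adjusted p = 0.0373 with it, edgeR). Fgf8 averaged 3.04 ± 0.795 CPM in Gli3R and 7.76 ± 1.47 CPM in control libraries, and Fgf4 0.197 ± 0.276 CPM in Gli3R and 2.2 ± 1.15 CPM in control libraries. Neither passed in edgeR (adjusted p = 0.171 for Fgf8 and 0.209 for Fgf4), with or without the block, and both passed by the DESeq2 test (adjusted p = 0.0271 and 0.0260) and in edgeR with no low-count filter (0.0234 and 0.0241). The list was drawn up with earlier results of these libraries known.

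Chromatin regulators of the Hox clusters keep them active (Trithorax) or silent (Polycomb). Of 28 Trithorax and Polycomb genes 25 were tested and 0 passed (edgeR, and 0 by the DESeq2 test), with 2 higher and 1 lower at an unadjusted p under 0.05 and a median log2 fold change of 0.0058. Ezh2, the methyltransferase of Polycomb complex PRC2, averaged 109 ± 5.29 CPM in Gli3R and 130 ± 5.10 CPM in control libraries (-0.25 ± 0.08, adjusted p = 0.501), and Cbx8 and Ezh1 stood at 0.65 ± 0.29 and -0.49 ± 0.25. Of genes beside or within the clusters 9 were tested and 0 passed (edgeR, and 0 by the DESeq2 test), with 2 higher at an unadjusted p under 0.05. Skap1, which neighbours HoxB, averaged 15.3 ± 3.08 CPM in Gli3R and 9.38 ± 1.65 CPM in control libraries (0.71 ± 0.21, adjusted p = 0.405, edgeR), and Snx10 stood at 0.43 ± 0.17. Skap2 (-0.16 ± 0.16) and the antisense transcript Hoxa11os (-0.60 ± 0.41) had adjusted p of 0.970 and 0.932 (edgeR). Hoxa11os and Hoxa11 were counted apart, but their exons overlap, so the reads of each may include those of the other.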

How the data were processed

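RNA of sorted mesoderm was sequenced in 6 libraries (3 Gli3R, 3 control). The authors deposited raw counts per Entrez gene. Among the software the submitters' processing notes mention are TopHat2 (2.0.14), Subread (1.4.6), FastQC, edgeR and featureCounts, and the genome build is mm9. No source used here gives the annotation or the strand setting. The labels' protocols name the SMARTer Ultra Low kit for cDNA and Nextera XT for libraries. Reads carry no molecular identifiers as far as the labels say, so intervals cover counting error only.

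Counts were analysed in R 4.3.3 with edgeR 4.0.16: filterByExpr (minimum count 10), TMM, and the two-sided quasi-likelihood test over 11913 genes with Benjamini-Hochberg adjustment at 0.05. Levels between genes were compared per kilobase of the longest transcript that GENCODE vM21 links to RefSeq. The fit was tested on simulated data, drawn with no litter effect, so the simulation does not bear on differences between litters. A second fit held litter as a block, since the labels give each library's litter. Deviations of litter-mates from their group means had correlations of 0.168, 0.187 and 0.0755, against -0.269 to 0.162 for a Gli3R and a control library of different litters. Library pairs differed by 3.90 to 13.9 in chi-square per gene, so none repeats another. Without the block, p-values measure the spread between litter pools of a group and ignore the pairing by litter. With the block, they measure the spread of the differences within litters. DESeq2 1.42.0, other scalings and filters, and left-out libraries and litters were tried as alternatives. Described in full are the Cdx genes, members with an unadjusted p under 0.05, members that passed with or without the block and the 8 of highest mean CPM, and of other lists up to 4 genes of the smallest p, and T, except 1 gene that is not reported here. Members and lists were chosen with earlier results of these data known.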

Additional observations from a re-analysis of the deposited data

How the results depend on the processing

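The count of genes that passed was 16 and that of members 0. With the replicate block these were 27 and 1, and the block changed no other member's call. DESeq2 gave 94 and 0, no low-count filter 108 and 0. Without 1 library the genes numbered 0 to 18 (0 without Gli3R replicate 3, with 346 higher and 313 lower at an unadjusted p under 0.05) and members 0. Without both libraries of litter 1, 2 or 3 they numbered 27, 2 and 0, and members 2 (Cdx1 and Cdx4), 0 and 0. Settings added after the data were seen joined the block with another choice. Without litter 1, 2 or 3 this gave 221, 3 and 0 genes, with 3 members (Cdx1, Cdx4 and Hoxa2) without litter 1. With DESeq2's size factors, library size alone, the DESeq2 test and no low-count filter it gave 40, 59, 78 and 284 genes and 1, 1, 1 and 4 members. The 4 were Cdx1, Cdx4, Hoxa2 and Hoxb6. With at least 5 CPM in 3 libraries and the block, Cdx1 did not pass (adjusted p = 0.0527, edgeR).

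Of the 12 members described in full, 10 kept their sign under all settings tried. When libraries or litters were left out, Hoxa10 ran from -0.71 to 0.057 (above 0 without litter 3, and 0.21 there with the block) and Hoxb1 from -0.063 to 0.37 (-0.0058 without Gli3R replicate 1, -0.015 without control replicate 2, -0.050 without litter 3, and -0.036 there with the block). Among other genes Skap2 ran from -0.35 to 0.010 (above 0 without litter 2). The causes were not tested. Per kilobase of merged exons, Hoxb2 stood at 20.3 and Hoxb5 at 2.77 CPM. Shallow libraries limit the low members: 1 count stood for 0.0777 to 0.186 CPM.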

Other observations

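Members, tested or not, were summed by paralog number after their values were seen. The 4 genes of group 4, which take part in patterning the neck region, were all too sparse to be tested. They summed to 1.79, 1.54 and 1.69 CPM in Gli3R libraries and to 2.97, 2.69 and 2.28 CPM in control libraries. The groups did not overlap, as in 12% of all tested genes in either direction. No test was made. Group 6, in which the tested gene Hoxb6 holds most reads, summed to 17.9, 19.1 and 25.3 CPM in Gli3R and to 9.83, 12.1 and 17.0 CPM in control libraries. That sum mostly repeats the values of Hoxb6. Group 13, the most 5′, summed to 0.544, 0.769 and 1.07 CPM in Gli3R and to 0.371, 0.770 and 1.14 CPM in control libraries, at or near the floor of the counts. All Hox members together summed to 262, 258 and 261 CPM in Gli3R and to 232, 218 and 237 CPM in control libraries. HoxB held most of these counts. The HoxD sum also had a higher mean in Gli3R (20.3 against 15.4 CPM in control). The HoxA and HoxC sums had lower means there (21.4 against 31.0 and 6.29 against 7.87 CPM). The summed Cdx counts were lower in Gli3R in each litter.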
